A study of Mus musculus with 54 samples.

Results

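Hox genes are the homeobox transcription factor genes that give the embryonic body axis its regional identities, and 33 of them were measured here, of 18193 genes in all, in 3 regions of the adult mouse brain. They were taken as every gene whose array annotation symbol is Hox followed by a cluster letter from a to d and a number, and each was read through the probe set (the group of array probes that reports a transcript) with the highest mean over 54 arrays. The 33 had 48 probe sets, and 11 had more than 1. A further 3 probe sets name a pair of Hox genes and were kept apart.

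Hox genes lie in separate clusters, and within each cluster their order on the chromosome follows the order of their embryonic expression along the body axis, with low-numbered genes reaching furthest forward into the hindbrain and high-numbered genes confined to the trunk and tail. Genes of the same number in different clusters are paralogues. In the embryo retinoic acid activates the low-numbered genes, Hox proteins bind DNA with TALE homeodomain partners of the PBX and MEIS families, and Polycomb proteins keep the clusters silent where they are not used. The forebrain, from which hippocampus and striatum arise, lies in front of the Hox domain of the embryo.

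The mice were males of the inbred strains C57L/J, C57BLKS/J, C57BL10/J, BalbC/J, C3H HeJ and C57BL6/J, 12 of each, of which 6 were tested for prepulse inhibition of the startle reflex at postnatal day 50. All were killed at postnatal day 60. Each of the 6 strains gave 3 arrays per tissue, 1 from tested and 2 from untested animals, so that brainstem, hippocampus and striatum had 18 arrays each. Every array carried pooled tissue of 3 mice, taken from alternating hemispheres, with an RNA integrity number of at least 7.7, so p-values measure the spread between such pools. The tissues came from the same mice, and which pools match across tissues was not given.

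Values are the authors' log2 expression values. A probe set was counted as above background on an array where it exceeded the 40th percentile of that array, which lay between 3.12 and 3.47. The lowest value on an array was -0.12 to -0.08 in brainstem, -0.20 to -0.15 in hippocampus and -0.02 to 0.03 in striatum, without overlap, and the sources used here do not say whether the tissues were normalized together. Differences between tissues were therefore also computed after quantile normalization and after centring each array on its median. The median difference over 13229 genes tested was 0.30 for brainstem minus striatum, 0.01 for brainstem minus hippocampus and 0.24 for hippocampus minus striatum. In bulk tissue, fewer cells of a type and less RNA per cell cannot be told apart.

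The tissue labels were checked against marker genes. Of the 9 tested markers of serotonergic, noradrenergic, motor and glycinergic neurons of the brainstem, 9 were higher in brainstem than in striatum (median log2 difference 5.61), although Chat, the acetylcholine-synthesising enzyme, was never above the 40th percentile there. All 7 striatal markers were lower in brainstem than in striatum (median -5.50), and all 7 hippocampal markers were lower in brainstem than in hippocampus (median -5.72). Cerebellar markers were also higher in brainstem than in striatum, 11 of 11 tested (median 4.13), and their summed log2 level ran between 81.8 and 145.6 over the brainstem arrays, against 55.5 to 58.5 in hippocampus and 45.8 to 50.7 in striatum. None of the 12 cerebellar markers stayed at background in brainstem, whereas 7 did so in hippocampus and 7 in striatum. The part of cerebellar tissue in the Hox values was not tested.

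One array stood apart and bears on every strain comparison in brainstem. On the second untested C3H HeJ brainstem array, the 12 Hox genes that were higher in brainstem than in striatum all lay below their medians over the 18 brainstem arrays, by a median of -1.08 log2 units, against medians from -0.10 to 0.21 on the other 17 arrays. On it the cerebellar markers had a median deviation of 5.05, against -0.68 to 1.41 on the others. Markers of brainstem neurons deviated by -1.38 on this array (others -0.17 to 0.09) and those of oligodendrocytes, the myelin-forming cells, by -0.75 (others -0.16 to 0.16). Choroid plexus markers were at -0.79 there, within the others' range of -1.69 to 1.19. Hoxa2 had 4.06 on this array, against 6.11 to 6.56 on the other 17 brainstem arrays. Hoxd3 had 4.47 on it, against 6.12 to 7.06 on the others. Hoxb4 and Hoxc5, by their brightest probe sets, were within 0.15 of the median of the other 17. By further probe sets both were lower on this array than on any of the others. Hoxc5 by 1439885_at had 3.22, against 5.15 to 5.72, and Hoxb4 by 1451761_at had 3.75, against 3.95 to 5.15. The part of this array's tissue content in the Hox values was not tested, and results that rest on it are given with and without it.

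**Figure D1:**
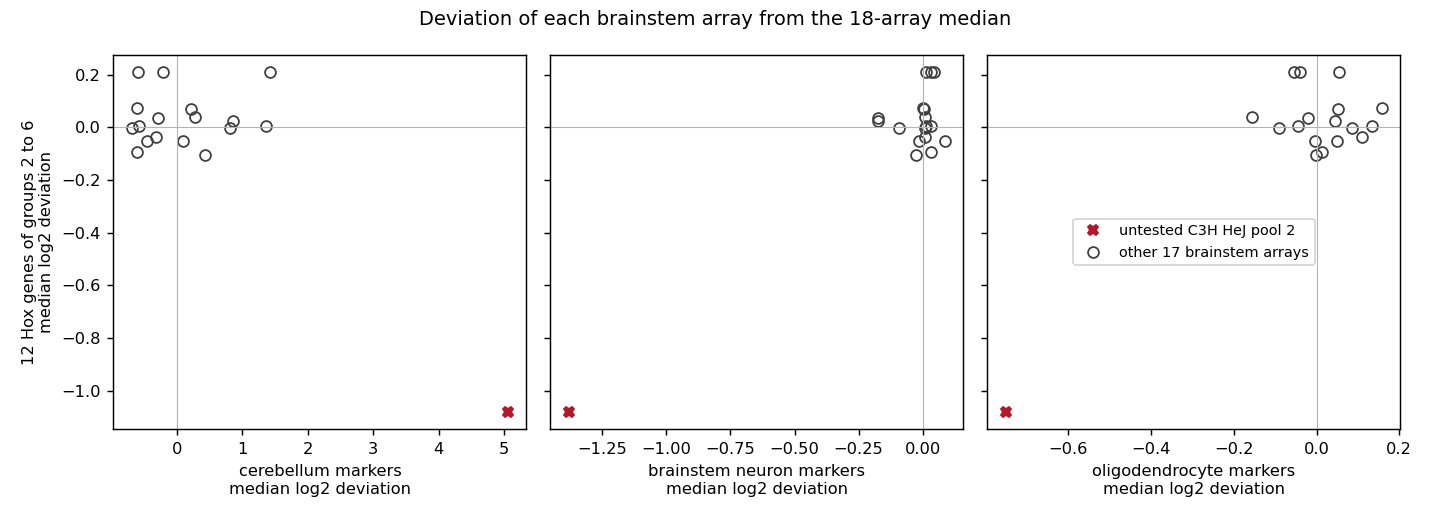
Median log2 deviation of the 12 Hox genes of groups 2 to 6 (vertical axis) against that of cerebellar, brainstem-neuron and oligodendrocyte markers (horizontal axes), 1 point per brainstem array, from the medians over 18 arrays. The red cross, the second untested C3H HeJ pool, has a Hox median of -1.08 and a cerebellar median of 5.05, apart from the other 17 arrays.

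Promoters of 4 genes are printed, neighbouring measured genes of HoxA and of HoxD. Hoxa5 and Hoxa7 lie on either side of the HoxA boundary between detected and undetected genes described below. Hoxd3 and Hoxd8 were both above the 40th percentile on 18 brainstem arrays, so they do not straddle such a boundary. Hoxa5 and Hoxd3 were high in brainstem, Hoxa7 was at background, and Hoxd8, the measured neighbour of Hoxd3, was detected but low in every tissue. Each window of 300 bases lies mostly before the annotated start and ends shortly after it, 5′ to 3′ on the gene's own strand, from RefSeq on GRCm38.p6: Hoxa5 at chr6:52204538-52204837 on the minus strand, Hoxa7 at chr6:52218524-52218823 on the minus strand, Hoxd3 at chr2:74711743-74712042 on the plus strand and Hoxd8 at chr2:74704365-74704664 on the plus strand. Capitals mark AGGTCA, the core site bound by retinoic acid receptors, or its reverse complement TGACCT.
Hoxa5: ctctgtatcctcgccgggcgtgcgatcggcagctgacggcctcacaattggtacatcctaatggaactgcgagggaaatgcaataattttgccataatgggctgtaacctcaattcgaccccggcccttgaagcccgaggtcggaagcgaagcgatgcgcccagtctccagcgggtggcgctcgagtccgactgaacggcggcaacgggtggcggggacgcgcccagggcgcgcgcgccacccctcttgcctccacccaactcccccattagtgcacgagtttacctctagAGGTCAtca
Hoxa7: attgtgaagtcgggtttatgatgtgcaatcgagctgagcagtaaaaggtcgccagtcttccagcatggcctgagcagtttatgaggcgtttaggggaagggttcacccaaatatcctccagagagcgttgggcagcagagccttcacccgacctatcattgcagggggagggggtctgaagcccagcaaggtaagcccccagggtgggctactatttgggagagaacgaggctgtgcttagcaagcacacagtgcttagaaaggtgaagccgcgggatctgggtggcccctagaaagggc
Hoxd3: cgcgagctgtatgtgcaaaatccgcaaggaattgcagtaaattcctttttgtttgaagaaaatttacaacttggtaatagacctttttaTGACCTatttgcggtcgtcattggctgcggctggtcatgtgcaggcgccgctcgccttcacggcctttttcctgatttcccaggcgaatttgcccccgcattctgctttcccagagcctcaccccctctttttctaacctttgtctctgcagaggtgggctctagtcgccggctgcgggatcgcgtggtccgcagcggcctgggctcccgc
Hoxd8: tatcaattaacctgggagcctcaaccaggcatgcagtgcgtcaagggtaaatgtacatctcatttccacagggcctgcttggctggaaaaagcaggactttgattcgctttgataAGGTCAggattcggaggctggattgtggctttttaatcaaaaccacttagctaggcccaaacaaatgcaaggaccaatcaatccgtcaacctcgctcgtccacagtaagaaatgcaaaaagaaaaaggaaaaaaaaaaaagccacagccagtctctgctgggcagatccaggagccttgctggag
CpG dinucleotides numbered 29 in the Hoxa5 promoter, 9 in that of Hoxa7, 20 in that of Hoxd3 and 6 in that of Hoxd8.

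Of the 33 members, 19 had a promoter in the RefSeq table, 21 promoters in all, and 6 of these genes (Hoxa2, Hoxa3, Hoxa5, Hoxb4, Hoxc4 and Hoxd3) were among those higher in brainstem than in striatum. AGGTCA on either strand was found in 4 of the 6, Hoxa5, Hoxb4, Hoxc4 and Hoxd3, and in 2 of the 15 promoters of other members, against 16.3% of all 32851 promoters in the table. The PBX and HOX motif TGATNNAT was in 1 of the 6 and 2 of the 15, against 8.85% of all promoters. TAATTA, the core that homeodomains bind, was in 0 of the 6 and 2 of the 15, against 5.29%. TATAAA, the TATA box, was in 0 of the 6 and 2 of the 15, against 13.6%. Both strands were searched, each motif was counted on its own so that matches of different motifs may overlap, and a match describes letters only. The median number of CpG dinucleotides was 17 in the 6 and 15 in the other members' promoters, against 7 in all promoters.

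In brainstem the Hox genes fell along the lines of paralogue number. Of the 13 members in groups 2 to 6, 12 were above the 40th percentile on at least 9 of 18 brainstem arrays, and Hoxc6, a trunk patterning gene, was never above it. Of the 18 members in groups 7 to 13, 1 was above it on that many arrays (Hoxd8) and 17 never were. Neither of the 2 members in group 1 was above it on that many: Hoxb1, which specifies facial motor neurons in the embryonic hindbrain, never was, and Hoxd1, known for its role in pain-sensing neurons, was on 2 of 18. Every one of the 12 genes in groups 2 to 6 had all its brainstem arrays above all its hippocampus and striatum arrays, and so did Hoxd1, 13 of 33 members in all. Over all 18193 genes, 13.5% had brainstem arrays that lay above every forebrain array in the same way.

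**Figure D2:**
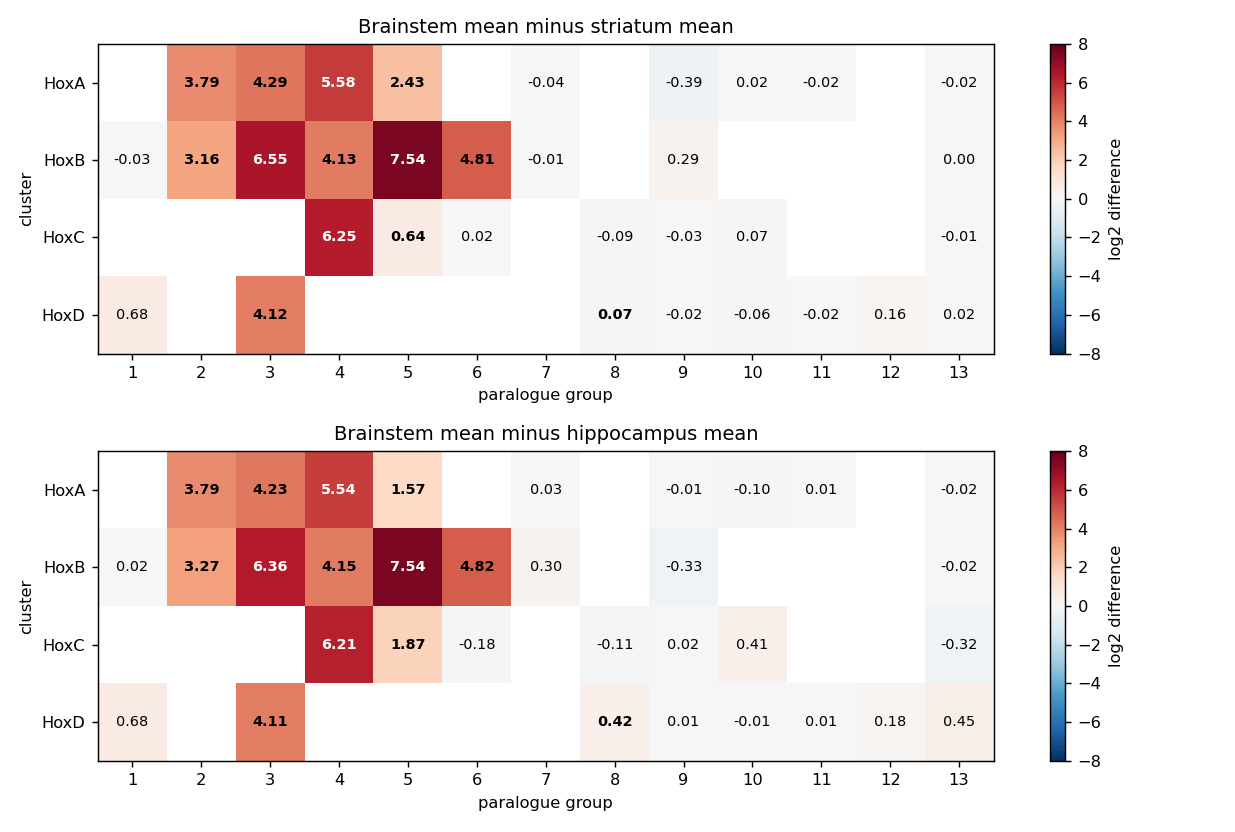
Brainstem mean minus striatum mean (upper panel) and minus hippocampus mean (lower panel), in log2 units, for each Hox gene by cluster (rows) and paralogue group (columns). Bold marks genes above the 40th percentile on at least 9 of 18 brainstem arrays and blank a position with no member, and differences from a tissue at background are of measured values; 12 of 13 members in groups 2 to 6 and 1 of 18 in groups 7 to 13 are bold.

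By cluster, 4 of 9 members of HoxA on chromosome 6 were detected on at least 9 brainstem arrays, 5 of 9 of HoxB on chromosome 11, 2 of 7 of HoxC on chromosome 15 and 2 of 8 of HoxD on chromosome 2. Each cluster had a boundary between neighbouring measured genes. In HoxA, Hoxa5 was above the 40th percentile on 18 arrays and Hoxa7, the next measured gene, on 0. In HoxB the boundary fell between Hoxb6 (18 arrays) and Hoxb7 (0), and in HoxC between Hoxc5 (18) and Hoxc6 (0). In HoxD, Hoxd3 and its measured neighbour Hoxd8 were both above it on 18 arrays and Hoxd9 on 0, and Hoxd8 in brainstem overlapped its striatum values.

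The 19 members never above the 40th percentile in brainstem were Hoxa7, Hoxa9, Hoxa10, Hoxa11, Hoxa13, Hoxb1, Hoxb7, Hoxb9, Hoxb13, Hoxc6, Hoxc8, Hoxc9, Hoxc10, Hoxc13, Hoxd9, Hoxd10, Hoxd11, Hoxd12 and Hoxd13. Most of these pattern the trunk, limbs, genitalia or tail in the embryo. Their brainstem means ran from 1.51 to 3.18, and their means differed by at most 0.39 between brainstem and striatum, 0.45 between brainstem and hippocampus and 0.61 between hippocampus and striatum. At such levels a difference between tissues has no readable fold. Of the 33 members, 18 were never above the 40th percentile in any tissue.

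A gene was tested where its brightest probe set exceeded the 40th percentile on at least 3 of the arrays fitted, and 14 of the 33 members were. Members pass this filter mainly through their brainstem arrays, so the counts that follow are read over all 33. Against striatum, 12 members were higher in brainstem and 0 lower, where 60.1% of all genes tested were higher and 29.0% lower (adjusted p under 0.05, limma with Benjamini-Hochberg adjustment). Of the 12, 11 were higher by over 1 log2 unit, where 23.0% of all genes tested were. Without any filter the count over 1 log2 unit was 11 of 33, against 16.9% of 18193 genes. Against hippocampus, 13 members were higher in brainstem, where 44.9% of all genes tested were, and 1 was lower, where 40.5% were. By over 1 log2 unit 12 were higher against hippocampus, where 13.5% of genes tested were, and without any filter this was 12 of 33, against 9.90% of genes. Over all 33 without a filter, 16 were higher and 5 lower than striatum, where 49.4% of all genes were higher and 29.1% lower. Against hippocampus 20 were higher and 5 lower, where 39.1% of all genes were higher and 34.5% lower. The counts with the filter did not change without the C3H HeJ array that stood apart.

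**Figure D3:**
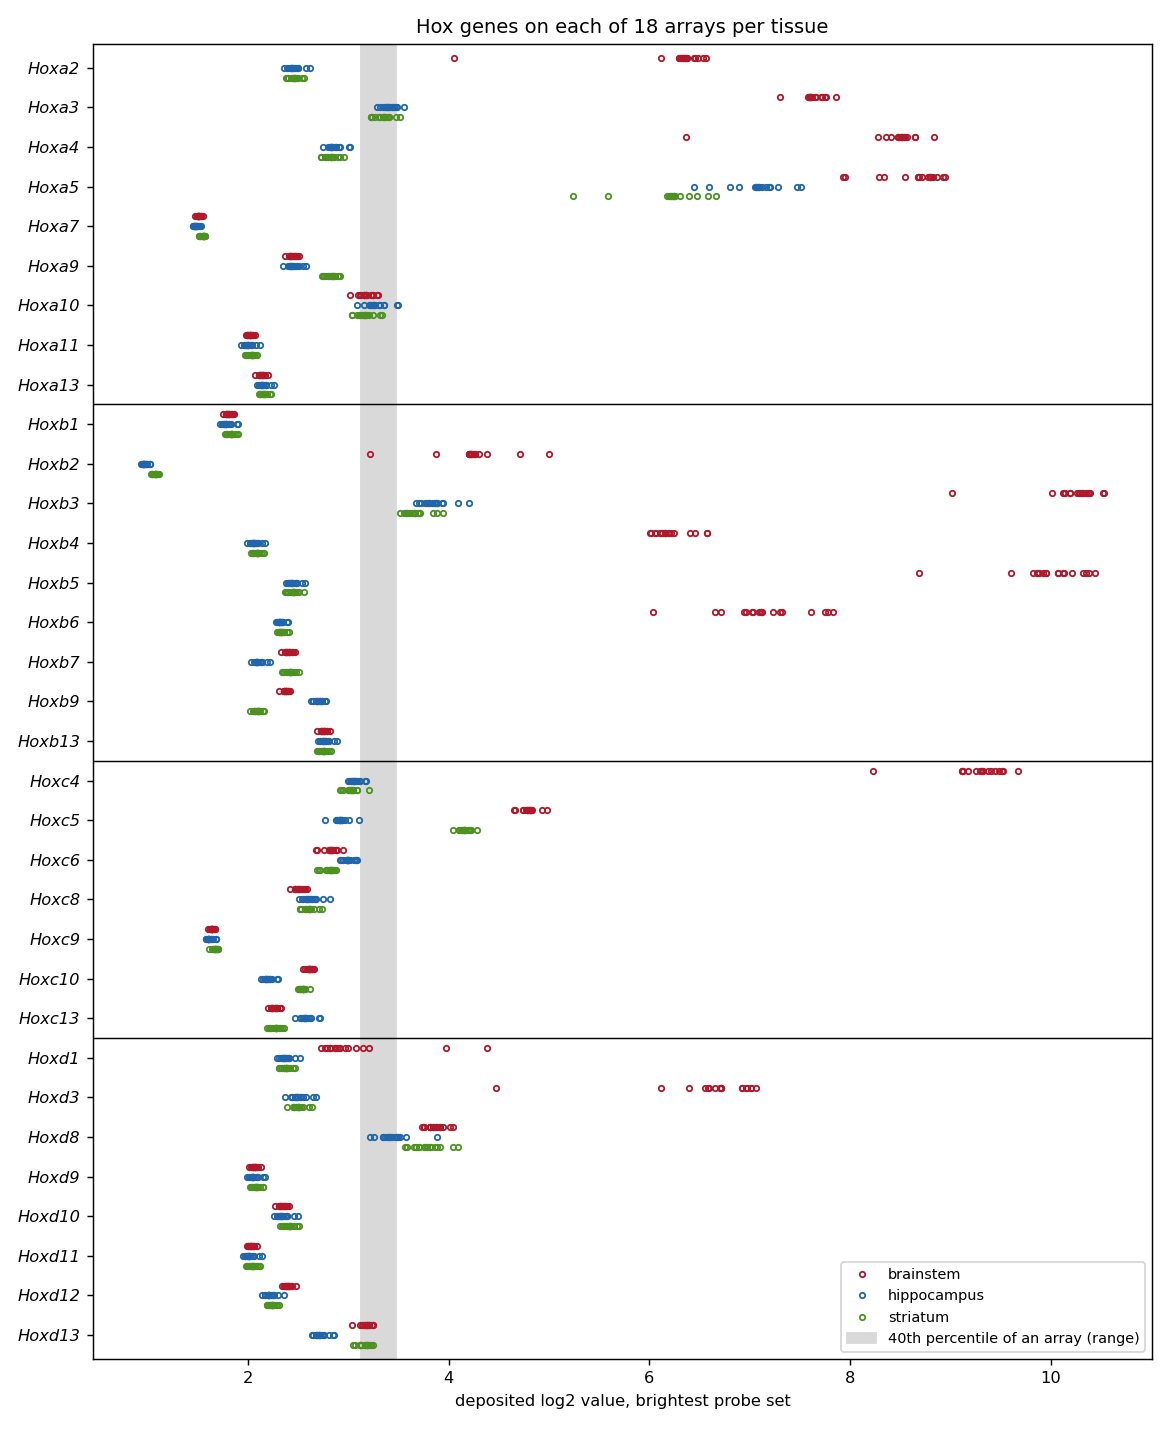
Log2 expression of Hox genes on each array of brainstem, hippocampus and striatum (18 arrays each), with the range of the 40th percentile marked. The brainstem arrays of the 12 genes from groups 2 to 6 all lie above the hippocampus and striatum arrays of the same gene.

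Where a gene was at background on every array of hippocampus or striatum, only a lower bound on the fold can be given. It sets the mean of the brainstem arrays against the mean, over the arrays of the other tissue, of the higher of the array's 40th percentile and the gene's own value. That floor averaged 3.33 in hippocampus and 3.19 in striatum for genes well under it.

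Paralogue group 2 holds the Hox genes that reach furthest forward in the embryonic hindbrain. Hoxa2, which specifies cranial neural crest of the pharyngeal arches, had a median of 6.35 in brainstem (range 4.06 to 6.56), against 2.35 to 2.62 in hippocampus and 2.37 to 2.56 in striatum. It was at background on every forebrain array, and brainstem was at least 7.55-fold higher than hippocampus and at least 8.27-fold higher than striatum (means 6.24, 2.45 and 2.45; adjusted p against striatum 8.71e-29). Hoxb2, which acts in facial nerve development, had a median of 4.22 in brainstem (3.21 to 5.00), against 0.93 to 1.02 in hippocampus and 1.03 to 1.11 in striatum. One brainstem array, the one that stood apart, was under the 40th percentile for Hoxb2. The bound for Hoxb2 was at least 1.87-fold against hippocampus and 2.05-fold against striatum (means 4.23, 0.96 and 1.07; adjusted p against striatum 4.40e-32).

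The genes of group 3 pattern the posterior hindbrain, the neck and the pharyngeal glands. Hoxb3 had a median of 10.29 in brainstem (9.02 to 10.54), against 3.84 in hippocampus (3.67 to 4.20) and 3.65 in striatum (3.51 to 3.94), and stayed above the 40th percentile on all arrays of all tissues. Its brainstem minus striatum difference was 6.55 ± 0.08 (SE; adjusted p 1.63e-41). Its second probe set was at background in both forebrain tissues and gave a brainstem level at least 50.2-fold above hippocampus and 54.9-fold above striatum. Hoxa3, needed for thymus and parathyroid, had a median of 7.61 in brainstem (7.31 to 7.86), against 3.28 to 3.56 in hippocampus and 3.22 to 3.51 in striatum. By this probe set Hoxa3 was above the 40th percentile on 17 hippocampus and 18 striatum arrays, at values close to that percentile (3.12 to 3.47). Brainstem minus striatum was 4.29 ± 0.03 for Hoxa3 (adjusted p 3.74e-47). Its second probe set was at background in both forebrain tissues and gave a bound of at least 32.6-fold against hippocampus and 35.7-fold against striatum (means 8.35, 2.88 and 2.85). The remaining Hoxa3 probe sets, 1431392_at and 1429398_at, averaged 2.58 and 2.20 in brainstem and were never above the 40th percentile in any tissue. Hoxd3, which patterns the first cervical vertebrae, had a median of 6.71 in brainstem (4.47 to 7.06), against 2.37 to 2.68 in hippocampus and 2.39 to 2.64 in striatum. Hoxd3 in brainstem was at least 9.77-fold above hippocampus and at least 10.7-fold above striatum (means 6.61, 2.50 and 2.50; adjusted p against striatum 2.06e-28).

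Group 4 genes have their front border inside the posterior hindbrain of the embryo. Hoxc4 had a median of 9.31 in brainstem (8.23 to 9.67), against 2.99 to 3.17 in hippocampus and 2.92 to 3.21 in striatum. Its bound was at least 62.0-fold against hippocampus and at least 67.9-fold against striatum (means 9.28, 3.06 and 3.02; adjusted p against striatum 1.21e-43). Hoxa4 had a median of 8.51 in brainstem (6.37 to 8.84), against 2.74 to 3.01 in hippocampus and 2.73 to 2.96 in striatum, at least 33.7-fold and at least 37.0-fold apart (adjusted p against striatum 1.30e-35). A second Hoxa4 probe set gave the same direction with a smaller difference, 1.60 log2 units over striatum, with brainstem values of 4.69 to 4.97. This probe set, 1420226_x_at, is of a design class in which some probes also match other sequences. It was above the 40th percentile on 10 hippocampus and 18 striatum arrays, so the probe sets differed on whether Hoxa4 was at background in the forebrain. Hoxb4, also a regulator of blood stem cells, had a median of 6.15 in brainstem (6.01 to 6.57), against 1.99 to 2.16 in hippocampus and 2.03 to 2.15 in striatum. The bound for Hoxb4 was at least 7.39-fold against hippocampus and 8.09-fold against striatum (adjusted p against striatum 1.45e-47). By its second probe set, at background in both forebrain tissues, Hoxb4 was at least 1.82-fold above hippocampus and 1.99-fold above striatum (means 4.19, 2.54 and 2.54).

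Groups 5 and 6 mark the cervical cord and lower medulla in the embryo. Hoxb5 had a median of 10.01 in brainstem (8.69 to 10.45), against 2.38 to 2.57 in hippocampus and 2.37 to 2.55 in striatum. It was at least 101-fold higher in brainstem than in hippocampus and at least 111-fold higher than in striatum (means 9.99, 2.45 and 2.44; adjusted p against striatum 3.27e-42). Hoxb6, which acts in the trunk and in blood formation, had a median of 7.11 in brainstem (6.03 to 7.83), against 2.27 to 2.39 in hippocampus and 2.29 to 2.40 in striatum. Its bound was at least 14.1-fold against hippocampus and at least 15.5-fold against striatum (adjusted p against striatum 3.42e-36). For both genes the brainstem arrays lay far above every forebrain array.

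Hoxa5, needed for the lung and for phrenic motor neurons, read differently by its 2 probe sets. By the brightest by mean (1443803_x_at, of a design class in which some probes also match other sequences) its median was 8.75 in brainstem (7.93 to 8.95), against 7.09 in hippocampus (6.44 to 7.51) and 6.24 in striatum (5.24 to 6.67). All 54 arrays were above the 40th percentile. Brainstem minus striatum was 2.43 ± 0.08 (adjusted p 7.53e-27), brainstem minus hippocampus 1.57 ± 0.08 (adjusted p 1.82e-20) and hippocampus minus striatum 0.86 ± 0.08 (adjusted p 1.27e-12). By the other probe set, 1448926_at, the brainstem median was 10.43 (8.86 to 11.23), against 2.33 to 2.58 in hippocampus and 2.35 to 2.53 in striatum, where no array was above the 40th percentile. That probe set gave at least 139-fold against hippocampus and at least 152-fold against striatum. The forebrain signal of Hoxa5 was thus present on 1 of its probe sets and at background on the other.

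Hoxc5, which acts with Hoxa5 in phrenic motor neurons, also had probe sets that differed. The brightest, 1456301_at, had a median of 4.79 in brainstem (4.65 to 4.98), against 2.92 in hippocampus (2.77 to 3.10) and 4.15 in striatum (4.05 to 4.28). It was at background on every hippocampus array and above it on all 18 striatum arrays, and the 3 tissues did not overlap. Brainstem minus striatum was 0.64 ± 0.03 (adjusted p 8.33e-24), and the bound for brainstem against hippocampus was at least 2.77-fold. Hippocampus was at least 1.78-fold lower than striatum (means 2.92 and 4.16; adjusted p 5.46e-33). By a second probe set, 1439885_at, Hoxc5 had a median of 5.34 in brainstem (3.22 to 5.72), against 2.10 to 2.30 in hippocampus and 2.13 to 2.28 in striatum. That probe set was at background throughout the forebrain, and its bound was at least 3.79-fold against hippocampus and 4.15-fold against striatum. The remaining Hoxc5 probe set, 1450832_at, averaged 2.91 in brainstem and was never above the 40th percentile in any tissue.

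**Figure D4:**
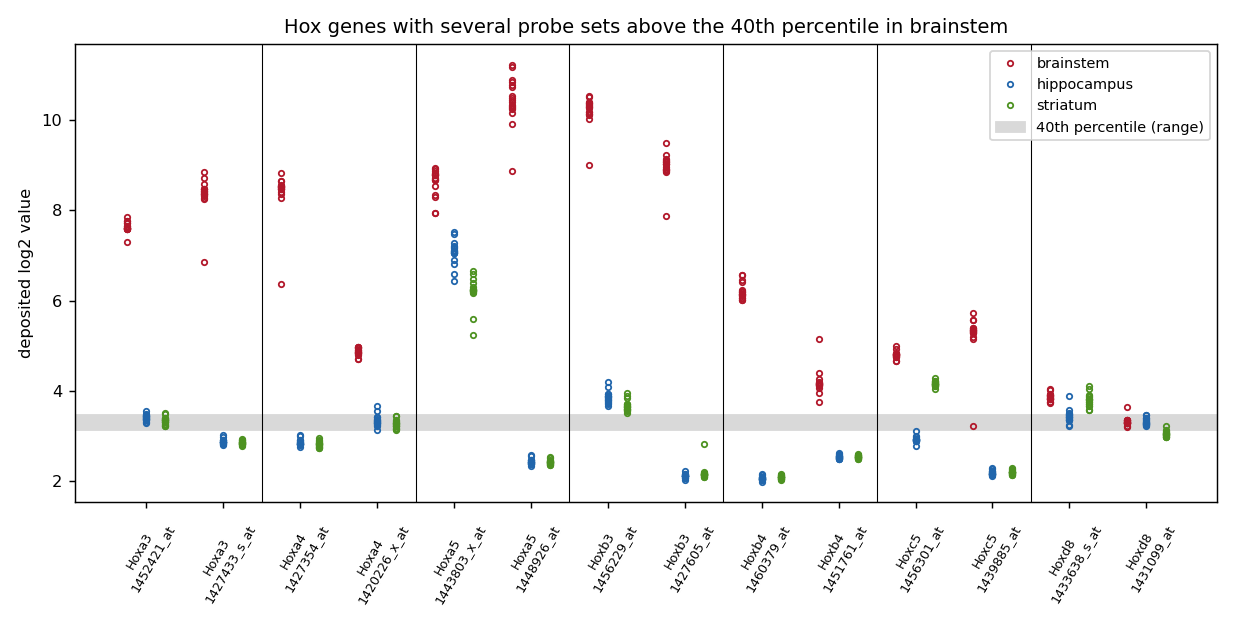
Log2 values of each probe set of Hox genes with more than 1 detected in brainstem, on 18 arrays each of brainstem, hippocampus and striatum. For Hoxa5, 1443803_x_at lies between 5.24 and 7.51 in the forebrain tissues and 1448926_at between 2.33 and 2.58.

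Hoxd8, a trunk gene, was the 1 member of groups 7 to 13 above the 40th percentile on most brainstem arrays, and its level was low. Its median was 3.85 in brainstem (3.74 to 4.04), against 3.41 in hippocampus (3.22 to 3.88) and 3.79 in striatum (3.56 to 4.10), and brainstem overlapped both. Brainstem minus hippocampus was 0.42 ± 0.05 (adjusted p 5.88e-11). Against striatum the difference was 0.07 ± 0.05 (adjusted p 0.134), and it turned negative, -0.13 after quantile normalization and -0.18 after median centring, with adjusted p under 0.05 in both. With the mean of all probe sets it was positive, 0.17, also with an adjusted p under 0.05 (1.64e-05), so no direction is given for Hoxd8 against striatum. Its second probe set was at background on every striatum array and averaged 3.32 in brainstem, against 3.05 in striatum, a bound of at least 1.09-fold. In hippocampus that probe set also averaged 3.32, so it did not show the difference between brainstem and hippocampus.

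Between the forebrain tissues, 5 members differed, 3 higher and 2 lower in hippocampus than in striatum, where 87.1% of all genes tested differed. Without a filter 17 of 33 differed, 6 higher and 11 lower, where 78.8% of all genes differed. Hoxa5 and Hoxc5 are given above. Hoxd8 by its brightest probe set was lower in hippocampus by -0.35 ± 0.05 (adjusted p 5.07e-09). This call was lost with the mean of all probe sets (-0.043, adjusted p 0.230). Its second probe set ran the other way, with means of 3.32 in hippocampus and 3.05 in striatum. No direction is therefore given for Hoxd8 between the forebrain tissues. Hoxb3 was higher in hippocampus by 0.19 ± 0.08 (adjusted p 0.0265), a direction that turned to -0.053 after quantile normalization and -0.18 after median centring. Hoxa10, which patterns the lumbar region and uterus, was above the 40th percentile on 2 hippocampus arrays, 3 striatum arrays and 0 brainstem arrays, and its difference of 0.12 ± 0.03 (adjusted p 0.000672) turned negative under the same scalings and with values raised to the 40th percentile. Its brainstem minus hippocampus difference was -0.10 ± 0.03 (adjusted p 0.00321), turning to 0.012 after median centring, so no direction is given for Hoxa10.

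Genes that act with or on Hox genes were counted by group, with medians taken over measured values, background ones included. Among the TALE homeodomain partners, 1 of 8 tested was higher and 5 lower in brainstem than in striatum (median log2 difference -0.29), against 60.1% higher and 29.0% lower of all genes. Against hippocampus 6 were higher and 2 lower (median 0.92), where 44.9% of all genes were higher and 40.5% lower. These shares apply to each list that follows. Meis1 had a mean of 9.99 in brainstem, against 2.89 in hippocampus and 8.70 in striatum. Meis2 averaged 11.87 in brainstem, against 10.41 in hippocampus and 13.44 in striatum. Against striatum, Pknox2 differed by -0.88 ± 0.04 and Pbx2 by -0.52 ± 0.04 (adjusted p 4.42e-22 and 2.47e-16).

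Of 13 genes of retinoic acid synthesis, breakdown and reception with a probe set, 8 were tested. Of the 8, 3 were higher and 4 lower in brainstem than in striatum (median -0.44), and 4 were higher and 3 lower than in hippocampus. Cyp26b1, which breaks retinoic acid down, averaged 7.76 in brainstem, against 6.46 in hippocampus and 2.97 in striatum. Aldh1a1, which makes it and also marks dopaminergic neurons, averaged 13.27 in brainstem, against 10.22 in hippocampus and 10.41 in striatum. The receptor gene Rarb averaged 6.65 in brainstem, against 2.70 in hippocampus and 12.49 in striatum, and Rarg was lower in brainstem than in striatum by -1.52 ± 0.03. Of 6 embryonic upstream activators with a probe set, 2 were tested. Egr2, which switches on group 2 genes in the embryo and also responds to neuronal activity, averaged 3.76 in brainstem, against 5.39 in hippocampus and 9.65 in striatum. Gbx2, a midbrain-hindbrain boundary gene, averaged 4.59 in brainstem, against 3.22 in hippocampus and 3.16 in striatum.

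Polycomb and trithorax regulators, which set the silent and active states of Hox clusters, were higher in brainstem than in striatum for 9 and lower for 6 of 19 tested (median 0.05), and higher for 3 and lower for 8 than in hippocampus. Kdm6a, a demethylase for the Polycomb mark, differed from striatum by -1.08 ± 0.04, Pcgf2 by -2.36 ± 0.12, Eed by 0.46 ± 0.04 and Ring1 by 0.52 ± 0.04. Of 17 protein-coding genes beside the clusters with a probe set, 13 were tested. Of the 13, 7 were higher and 3 lower than in striatum (median 0.07), and 5 were higher and 7 lower than in hippocampus. Among them Smug1, a DNA repair gene near HoxC, was lower by -2.55 ± 0.06 and Snx11 near HoxB by -1.32 ± 0.04, while Hibadh near HoxA was higher by 1.04 ± 0.02 and Mtx2 near HoxD by 0.91 ± 0.03.

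Of 14 other homeobox genes of the hindbrain and spinal cord with a probe set, 10 were tested. Such genes can pass the filter through the brainstem arrays where they are high, so these counts are partly set by the filter. Of the 10, 9 were higher in brainstem than in striatum and 1 was lower (median 4.59). Against hippocampus all 10 were higher. Irx3, a neural tube patterning gene, averaged 9.15 in brainstem, against 2.42 in hippocampus and 1.82 in striatum, and Lbx1, of dorsal interneurons, was at least 16.1-fold higher than in striatum, where it was at background, Irx5 at least 22.7-fold and Irx1 at least 2.41-fold. Homeobox and forkhead genes of the forebrain, of which 10 of 11 with a probe set were tested, ran the other way. Of the 10, 1 was higher and 8 were lower than in striatum (median -3.70), and 2 were higher and 8 lower than in hippocampus. Lhx2, of the cortical primordium, averaged 2.10 in brainstem, against 10.48 in hippocampus and 8.24 in striatum. Dlx5, Dlx6 and Emx2, which pattern the striatal and cortical primordia, were at background in brainstem and at least 18.4-fold, 4.88-fold and 11.9-fold lower there than in striatum.

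The remaining marker lists also moved between tissues, beside 60.1% of all genes higher and 29.0% lower than in striatum and 44.9% higher and 40.5% lower than in hippocampus. Their counts are over tested genes, which can pass the filter through the tissue where they are high. Choroid plexus genes were higher in brainstem than in striatum for 6 of 7 and than in hippocampus for 7 of 7. Meningeal genes were higher than in striatum for 7 of 7, and higher for 3 and lower for 4 than in hippocampus (median -0.53). Oligodendrocyte genes were higher for 9 of 9 and blood genes for 3 of 3 in both comparisons. Midbrain dopaminergic genes were higher for 4 of 5 in both, and 1 was lower than in hippocampus. Thalamic genes were higher for 4 of 5 in both, and 1 was lower than in striatum. Of 7 hippocampal genes 4 were higher and 3 lower than in striatum, of 7 striatal genes 5 were higher and 2 lower than in hippocampus, and 1 of 2 muscle genes was lower in both comparisons. Cerebellar genes were higher than in hippocampus for 10 and lower for 1 of 11, and brainstem-neuron genes higher for 8 of 9. Their part in the Hox differences was not tested.

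Across the 6 strains, 0 of the 13 members tested in brainstem differed with all 18 arrays, where 23.0% of all genes tested did (limma F test, adjusted p under 0.05), and 1 member had an unadjusted p under 0.05, as did 4609 of 12484 genes. The smallest adjusted p was 0.0707, for Hoxa5. Each strain was then set against C57BL6/J. The count of members was 0 for C3H HeJ (19.3% of all genes), BalbC/J (12.3%), C57BL10/J (2.75%), C57BLKS/J (2.74%) and C57L/J (3.28%), with 1 member at an unadjusted p under 0.05 for C57BLKS/J (1642 of 12484 genes), 1 for C57L/J (1690 genes) and 0 for C3H HeJ (4147 genes), BalbC/J (3149 genes) and C57BL10/J (2212 genes). Differences over the 13 members ran from -0.84 to 0.06 for C3H HeJ, and without the array that stood apart from -0.032 to 0.42. For C57L/J they ran from -0.50 to 0.28.

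**Figure D5:**
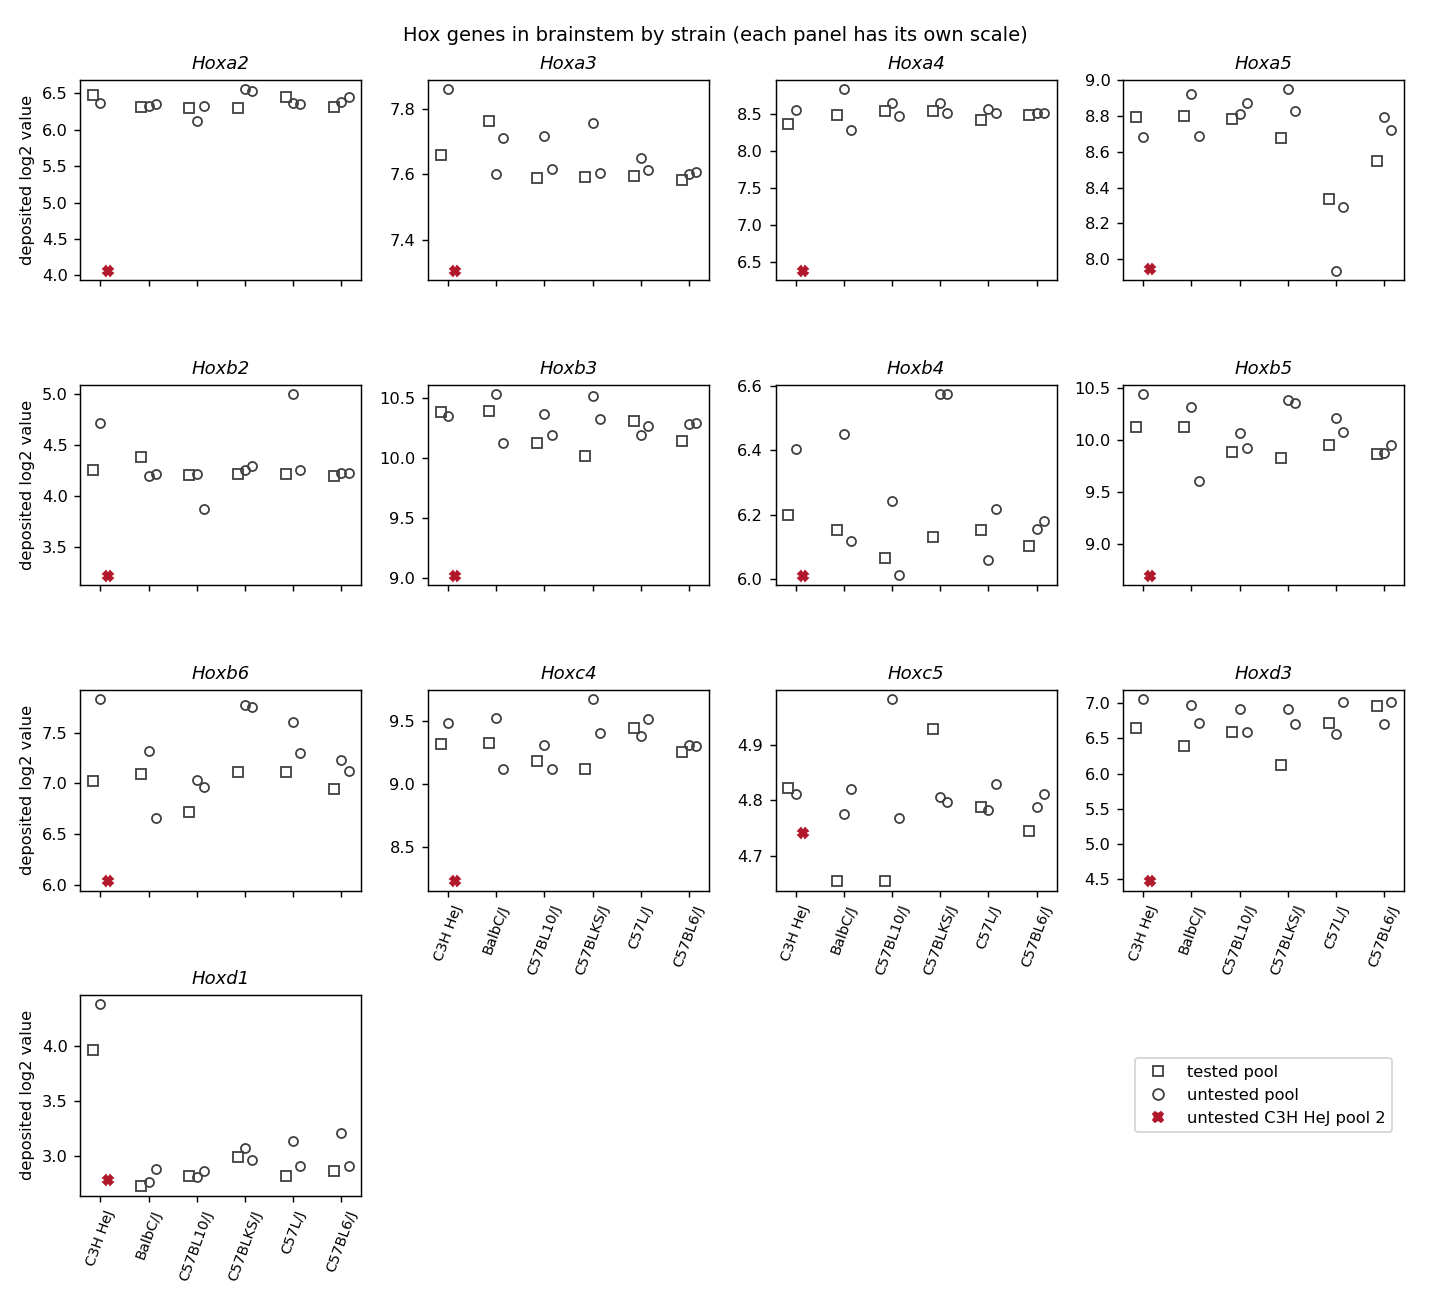
Brainstem log2 values of the brightest probe sets of Hox genes by strain, with squares for tested pools, circles for untested pools and a red cross for the second untested C3H HeJ pool; each panel has its own scale. The red cross is the lowest point in most panels, the C57L/J points for Hoxa5 lie between 7.93 and 8.34, and the C3H HeJ points for Hoxd1 include 3.97 and 4.38.

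Without the array that stood apart, 1 member differed among strains in brainstem, Hoxa5 (adjusted p 0.00247; range over all alternatives 0.00247 to 0.749), where 37.7% of all genes did. It also passed without the tested (adjusted p 0.0343) or the first untested C3H HeJ array (adjusted p 0.0467). Hoxb6 followed with an adjusted p of 0.0513. Against C57BL6/J the count was then 0 for C3H HeJ (21.5% of all genes), BalbC/J (25.3%), C57BL10/J (12.2%) and C57BLKS/J (7.73%), with 1, 0, 0 and 2 members at an unadjusted p under 0.05, against 4246, 4565, 3690 and 2683 of 12475 genes. It was 1 for C57L/J (9.14%), Hoxa5, at -0.50 ± 0.11 (adjusted p 0.0109). With the first untested C3H HeJ brainstem array left out in its place, Hoxa4 (-1.17, adjusted p 0.0340) and Hoxd3 (-1.35, adjusted p 0.0448) were lower in C3H HeJ, a comparison with C57BL6/J that then leans on the array that stood apart.

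The 2 probe sets of Hoxa5 ran in opposite directions in C57L/J. By 1443803_x_at, the C57L/J brainstem arrays had 8.34, 7.93 and 8.29, against 8.55, 8.79 and 8.72 in C57BL6/J (means 8.19 ± 0.22 and 8.69 ± 0.13, SD, n = 3 each). By 1448926_at they had 10.85, 11.18 and 11.23 in C57L/J, against 10.29, 10.25 and 10.46 in C57BL6/J (means 11.09 ± 0.20 and 10.33 ± 0.11). The strains overlapped by neither probe set. In a fit of every probe set singly and with all arrays, the differences were -0.50 ± 0.18 (adjusted p 0.199) and 0.75 ± 0.37 (adjusted p 0.421), where 3.54% of probe sets differed. Without the array that stood apart they were -0.50 ± 0.11 (adjusted p 0.0129) and 0.75 ± 0.16 (adjusted p 0.00916), where 7.92% did. No direction for the Hoxa5 transcript in C57L/J follows from probe sets that oppose each other.

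Hoxb6 in brainstem had 7.11, 7.78 and 7.75 in C57BLKS/J, against 6.94, 7.23 and 7.12 in C57BL6/J, and the lowest C57BLKS/J array lay within the C57BL6/J range. Hoxd1 is named after its values were seen. It had 3.97, 4.38 and 2.78 on the tested and the 2 untested C3H HeJ arrays, against 2.86, 3.21 and 2.91 in C57BL6/J, and the third C3H HeJ value is from the array that stood apart. The C3H HeJ arrays at 3.97 and 4.38 were the 2 brainstem arrays above the 40th percentile, and Hoxd1 failed the filter. All 3 C57BL6/J arrays were at background, so only a bound can be given: C3H HeJ was at least 1.33-fold higher with all arrays (means 3.71 and 2.99; adjusted p 0.114 without a filter). Without the array that stood apart the bound was at least 1.84-fold (means 4.17 and 2.99; adjusted p 1.69e-06 without a filter), in a setting chosen after these values were seen. Hoxd1 was then the 1 member of 33 past the test in that contrast, where 13.8% of genes were. Across strains, 3 of 33 members differed in that setting, Hoxd1, Hoxa5 and, by a range of 0.09 at background, Hoxd12, where 25.0% of genes did.

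In hippocampus, 1 of 4 members tested differed among strains, Hoxa5 by 1443803_x_at, where 31.2% of all genes did (range of strain means 0.75, adjusted p 0.00330). C3H HeJ had 7.47, 7.12 and 7.51, BalbC/J 7.16, 7.09 and 7.10, C57BL10/J 7.19, 7.28 and 7.07, C57BLKS/J 7.08, 7.06 and 7.07, and C57L/J 7.05, 7.20 and 6.89, against 6.59, 6.44 and 6.80 in C57BL6/J. The C57BL6/J arrays lay below every array of the other strains. The other Hoxa5 probe set was at background on all 18 hippocampus arrays. In striatum 0 of 6 members tested differed, where 26.2% of all genes did, and none had an unadjusted p under 0.05. Hoxa5 there spanned strain means by 0.58 (adjusted p 0.413).

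Whether strain differences themselves differed between tissues was tested by an interaction term, which 1 member of 14 passed, Hoxa5 by 1443803_x_at (adjusted p 0.0306), where 17.4% of all genes did. Without the array that stood apart 2 passed, Hoxa5 (adjusted p 0.0139) and Hoxb6 (adjusted p 0.0199), where 21.8% of all genes did. The Hoxa5 result was lost with a replicate block (adjusted p 0.0611), with the mean of all probe sets (adjusted p 0.532) and without any 1 of 5 arrays: in hippocampus the tested or second untested C3H HeJ array or the tested or first untested C57BL6/J array, and in brainstem the first untested C57L/J array, with adjusted p between 0.0563 and 0.0601.

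Tested pools were set against untested pools within each tissue. No member differed, of 13 tested in brainstem, 4 in hippocampus and 6 in striatum, and 0% of all genes did in each tissue. At an unadjusted p under 0.05, 0 members passed in each tissue, against 281 of all genes in brainstem, 488 in hippocampus and 467 in striatum. Without the array that stood apart 3 members, Hoxb6, Hoxd3 and Hoxb4, had an unadjusted p under 0.05 in brainstem, against 906 of 12475 genes, and shared an adjusted p of 0.681.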

How the data were processed

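Total RNA of 54 tissue pools was hybridised to mouse expression arrays of 45101 probe sets. The deposited values are log2 expression values that the authors normalized and summarised. They used, per the submitters' processing notes, R 2.6.1, affy 1.16.0, RMA, GCRMA 2.10.0 and limma 2.12.0; the sources used here do not say which summary made the values. Of the probe sets, 64 were controls, 34945 named 1 gene, 932 several, and 9160 are unnamed here, which gave 18193 genes, 9010 of them with several probe sets.

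Each gene was read through its brightest probe set by mean over 54 arrays, and tested where this exceeded the 40th percentile of its array on at least 3 of the arrays fitted. Tissues were compared in limma 3.58.1 (R 4.3.3; lmFit and eBayes with an intensity trend, two-sided) with strain and testing within tissue as terms, and strains and testing within each tissue. P-values were Benjamini-Hochberg adjusted over all genes tested, with calls at 0.05. The scripts were tested on simulated data.

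The members, gene lists and tests were chosen with earlier results of these data known. Named were members called in any comparison, those with a second detected probe set, and up to 4 genes of each of 7 pathway lists with the smallest p; 11 marker lists were given as counts. Alternatives were no filter, a filter of 9 arrays, the mean of all probe sets, quantile normalization, median centring, a floor at the 40th percentile, no trend, no testing term, a replicate block, and leaving out each array. Testing every probe set singly, and leaving out the array that stood apart together with the filter, were added after seeing the data. Precision is limited by the number of arrays.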

Additional observations from a re-analysis of the deposited data

Results flagged for a closer look

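The effect of strain on Hoxa5 (probe set 1443803_x_at) differed between the 3 tissues by the interaction of strain and tissue in limma, with an adjusted p of 0.0306 over all genes tested, but not with a replicate block (adjusted p 0.0611), with the mean of all probe sets (adjusted p 0.532) or without any 1 of 5 arrays (adjusted p up to 0.0601). The tissues came from the same mice. Among strains, its means spanned 0.63 log2 units in brainstem, 0.75 in hippocampus and 0.58 in striatum. C57L/J was the lowest strain in brainstem, with a mean of 8.19, and C57BL6/J the lowest in hippocampus, where its 3 arrays had 6.59, 6.44 and 6.80. By the other Hoxa5 probe set, 1448926_at, C57L/J was the highest strain in brainstem, with a mean of 11.09. That probe set was at background on every hippocampus and striatum array. In striatum 1 C57BL10/J array, at 5.24, was the lowest of the 18.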

How the results depend on the processing

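Brainstem differences from striatum and hippocampus of the 12 genes in groups 2 to 6 kept their direction and passed the test under every alternative run. Without a filter, 21, 25 and 17 of 33 members differed for brainstem minus striatum, brainstem minus hippocampus and hippocampus minus striatum; the added ones were at background on every array but for Hoxd1, above it on 2 brainstem arrays. Hippocampus minus striatum had 2 members with the mean of all probe sets and 14 after median centring, and the shares of all genes there are not given. Centring added Hoxa2, Hoxa3, Hoxa4, Hoxb2, Hoxb4, Hoxb5, Hoxb6, Hoxc4 and Hoxd3, at -0.30 to -0.47. By their brightest probe sets, all of these but Hoxa3 were at background on every hippocampus and striatum array. For them the count after centring is not read as a difference between tissues. Strain by tissue had 0 with the mean of all probe sets and 0 with a replicate block (Hoxa5 adjusted p 0.0611). Among strains in brainstem, 1 member (Hoxa5) passed after median centring (adjusted p 0.0486) and 1 (Hoxa5) with values raised to the 40th percentile (adjusted p 0.0409). Without the array that stood apart and without a filter, the counts were 3 among strains, 1 for C3H HeJ and 1 for C57L/J. Quantile normalization reversed Hoxa10 (-0.067) and Hoxd8 (-0.13) for brainstem minus striatum, and Hoxb3 (-0.053) and Hoxa10 (-0.0098) for hippocampus minus striatum. It also turned Hoxa3 for hippocampus minus striatum from 0.066 (adjusted p 0.0741) to -0.091 (adjusted p 0.00377). Median centring reversed Hoxa10 (-0.23) and Hoxd8 (-0.18) for brainstem minus striatum and Hoxa10 (0.012) for brainstem minus hippocampus. For hippocampus minus striatum it reversed Hoxb3 (-0.18), Hoxa10 (-0.25) and Hoxa3 (-0.30). It also turned the differences of Hoxa2, Hoxa4, Hoxb5, Hoxc4 and Hoxd3 there from positive to negative, at background in both tissues by their brightest probe sets. Values raised to the 40th percentile reversed Hoxa10 (-0.0017) and Hoxa3 (-0.064, adjusted p 0.0238) for hippocampus minus striatum. The cause was not tested. Leaving out each array gave 12 to 13 members for brainstem minus striatum, 14 for brainstem minus hippocampus, 4 to 7 for hippocampus minus striatum, 0 to 3 for strain by tissue, 0 to 1 among strains in brainstem, 0 to 2 for C3H HeJ and 0 to 1 for C57L/J. Hoxd8 passed for brainstem minus striatum without the second untested C3H HeJ striatum array (adjusted p 0.0390), and Hoxb3 was lost for hippocampus minus striatum without the first untested C57BL6/J hippocampus array (adjusted p 0.0568). Hoxa3 passed for hippocampus minus striatum when some single arrays were left out, with positive differences of 0.066 to 0.077. No direction is therefore given for Hoxa3 between the forebrain tissues. Same-numbered pools correlated with a median of 0.10 between brainstem and hippocampus, -0.01 between brainstem and striatum and 0.02 between hippocampus and striatum, with 9, 1 and 4 of 18 pairs over 0.1, so numbers were not taken as pairs; the replicate block changed no other count of members by over 1.5 times.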

Other observations

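Probe sets that name a pair of Hox genes, or an antisense transcript of a cluster, were outside the comparisons. The probe set for Hoxd4 and Hoxd3, 1421537_at, had a median of 8.70 in brainstem (8.07 to 9.04), against 2.00 to 2.15 in hippocampus and 2.03 to 2.28 in striatum, at least 41.6-fold and at least 45.5-fold higher in brainstem. A second probe set for the same pair, 1450209_at, averaged 2.04 in brainstem and was never above the 40th percentile. The probe set for Hoxb8 and Hoxb7, 1452493_s_at, had 3.15 to 3.27 in brainstem, against 1.65 to 1.76 in hippocampus and 2.01 to 2.13 in striatum. It did not overlap between tissues, though no array was above the 40th percentile. Hoxb5os, transcribed opposite Hoxb5, had a median of 3.81 in brainstem (3.71 to 4.41), all above its forebrain values of 2.80 to 3.05.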
